A study of Mus musculus with 4 samples.

Results

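The granins and prohormone processing genes are genes whose products fill secretory granules or mature the peptides inside them, 10 of the 55401 genes listed for the mouse optic nerve. They are the 5 granins Chga, Chgb, Scg2, Scg3 and Vgf, the convertases Pcsk1 and Pcsk2, the convertase partners Scg5 and Pcsk1n, and the carboxypeptidase Cpe. The set was selected on measured values, the much lower levels of Chga and Scg2 in Dor cKO, so its values in that contrast are a description. No p-value is given for them, and whether a member passed the threshold over all genes is stated only to describe it. All 10 passed the low-count filter, as did 16751 genes in all, and the lowest count of any member in any library was 182.

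The samples were optic nerves of 2 groups, Dor cKO (2 libraries) and Dor WT (2 libraries), where cKO is taken to stand for conditional knockout; the study's title concerns Dor in oligodendrocyte metabolism and myelin. What drives the deletion, and the age, sex, strain and number of animals behind a library, are not stated in the labels, so p-values measure the spread between these libraries, which may be technical. A tag that looks like an age stands in the table names of Dor WT but is absent from those of Dor cKO, and a difference of age or batch cannot be told apart from genotype. Libraries held 20928332 to 21162594 estimated counts in Dor cKO and 17263830 to 21595832 in Dor WT. The labels do not say which gene Dor is: the name is used for Trp53inp2, and RefSeq lists it as a synonym of Oprd1, which had 5 and 0 counts in Dor cKO and 4 and 2 in Dor WT and was too low to test. Trp53inp2 had 105 and 107 CPM (a count scaled to a common library size) in Dor cKO and 138 and 134 CPM in Dor WT, a log2 fold change of -0.36 (SE 0.04, edgeR adjusted p = 2.73e-08). Counts over a whole gene do not check a deletion limited to some exons or cells, and the call was lost under limma on log2(TPM + 1) (adjusted p = 0.0719) and under a fixed biological coefficient of variation of 0.1 (adjusted p = 0.111). The markers of the labelled tissue were abundant in both groups, with summed levels of 17719 to 17790 CPM in Dor cKO and 30612 to 30730 CPM in Dor WT over 10 oligodendrocyte genes, and of 14894 to 14926 CPM in Dor cKO and 13584 to 13587 CPM in Dor WT over 8 astrocyte genes.

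Granins are acidic proteins that condense with peptide hormones and calcium in the trans-Golgi network and help to form dense core granules. Convertases cut prohormones after pairs of basic residues, carboxypeptidase E trims the basic residues that remain, and the finished peptides are released when the cell is stimulated. These genes are best known from endocrine cells such as those of the pituitary and adrenal medulla and from peptide-releasing neurons, and astrocytes are also known to make some of them, carboxypeptidase E and secretogranin III among them.

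Promoter sequences are shown because several granin genes are known to be driven through a cAMP response element (CRE), the site TGACGTCA, close to their start. RefSeq promoters on GRCm38.p6 were at hand for 8 of the 10 genes, and Vgf and Cpe had no entry. In the 250 bases before the start, searched on both strands, the full CRE was found in Chgb, Scg2 and Pcsk1, which is 3 of 8, against 1.55% of all 32851 promoters. RefSeq and GENCODE place some starts differently: the matches in Chgb and Scg2 lie inside the gene as GENCODE annotates it, and that in Pcsk1 lies before it. The shorter site TGACG, which is also part of the full CRE, was found in 7 of 8, all but Pcsk1n, against 17.8% of all promoters. The 30 bases around the match in the gene with the largest fall and in the 3 genes with a full CRE read as follows, with the matched letters in capitals.

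Chga (chr12:102554885-102554914, plus strand): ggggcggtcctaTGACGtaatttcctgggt
Chgb (chr2:132781559-132781588, plus strand): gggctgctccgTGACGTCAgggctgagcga
Scg2 (chr1:79440076-79440105, minus strand): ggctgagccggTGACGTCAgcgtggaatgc
Pcsk1 (chr13:75089768-75089797, plus strand): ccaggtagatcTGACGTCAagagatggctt

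The match began 44 bases before the RefSeq start in Chga, 72 in Chgb, 68 in Scg2 and 78 in Pcsk1. Chga holds the shorter site in this window and not the exact letters TGACGTCA, as its match continues as TGACGtaa. Variants of the full CRE were not searched for, so whether Chga has a CRE with other letters was not tested. The whole 250 bases before its start (chr12:102554691-102554940, plus strand) are given because it changed most among the 10.

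Chga: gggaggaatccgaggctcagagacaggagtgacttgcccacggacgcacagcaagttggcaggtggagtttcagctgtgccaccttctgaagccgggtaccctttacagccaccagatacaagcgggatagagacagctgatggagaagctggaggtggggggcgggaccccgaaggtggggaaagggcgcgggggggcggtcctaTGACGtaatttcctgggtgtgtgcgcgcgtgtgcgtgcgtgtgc

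A match describes letters and not a bound site, and the fold changes of the 3 genes with a full CRE ranged from -1.31 for Scg2 to -0.20 for Pcsk1, given with the values below.

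Among the granins, Chga, Scg2 and Chgb were lower in Dor cKO, Vgf slightly lower and Scg3 slightly higher. Levels are in TPM, a unit of transcript abundance in which each library has the same total and which allows for gene length. Chga encodes chromogranin A, the precursor of pancreastatin and catestatin. It had 15.03 and 15.75 TPM in the Dor cKO libraries, against 78.4 and 81.9 TPM in the Dor WT libraries. The groups lay far apart, each with 2 close values, and the fold change fitted to the counts was 5.12-fold lower in Dor cKO (log2 fold change -2.36, SE 0.07, n = 2 each). Counted from the lowest log2 fold change, it held place 39 of 16751 genes tested.

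Scg2, which encodes secretogranin II, the precursor of secretoneurin, had 30.8 and 28.4 TPM in Dor cKO and 72.8 and 76.7 TPM in Dor WT. Both Dor cKO libraries were below both Dor WT libraries, with a log2 fold change of -1.31 (SE 0.05), 2.47-fold lower. Chgb, which encodes chromogranin B, had 14.3 and 15.1 TPM in Dor cKO and 28.7 and 28.4 TPM in Dor WT. It did not overlap between groups either and was 1.91-fold lower (log2 fold change -0.94, SE 0.07). In TPM, the level of Chga was 1.05 and 1.04 times that of Chgb in Dor cKO and 2.73 and 2.88 times that of Chgb in Dor WT, so the 2 chromogranins stood at like levels in Dor cKO and not in Dor WT. In bulk tissue, fewer cells that express a gene and less RNA of it per cell cannot be told apart. Pituitary marker genes, of a gland rich in these granins, also differed between the same libraries, with a summed 2.67 and 2.31 CPM in Dor cKO and 33.8 and 31.3 CPM in Dor WT, and their part in the result was not tested.

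Vgf encodes a granin-like precursor that neurotrophins induce. Its level was 24.8 and 23.8 TPM in Dor cKO and 32.3 and 28.3 TPM in Dor WT. The groups were apart by less than the Dor WT libraries differed from each other. Its log2 fold change was -0.23 (SE 0.07), and its call ended with DESeq2, with limma on log2(TPM + 1), with a fixed biological coefficient of variation of 0.1, without Dor cKO replicate 2 (-0.20) and without Dor WT replicate 1 (-0.16). Scg3, which encodes a granin that binds cholesterol and chromogranin A at the granule membrane, had 184 and 189.6 TPM in Dor cKO and 160.0 and 161 TPM in Dor WT. It went the other way from its partner, 1.16-fold higher (log2 fold change 0.21, SE 0.03). The level of Chga was 0.0816 and 0.0831 times that of Scg3 in Dor cKO and 0.490 and 0.510 times that of Scg3 in Dor WT.

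**Figure D1:**
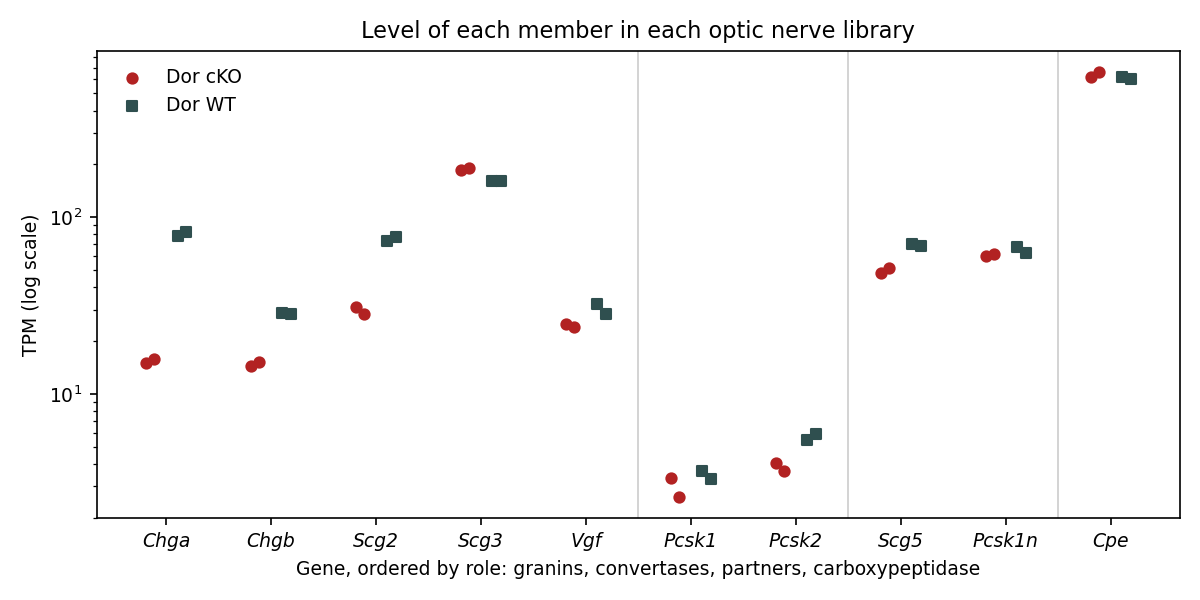
TPM of each of the 10 genes in each of the 4 libraries, on a log axis, with Dor cKO as red circles and Dor WT as dark squares. Chga, Chgb and Scg2 are well separated between the groups, Pcsk1 overlaps, and Cpe is the highest gene in all 4 libraries.

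The convertases had the lowest levels of the set. Pcsk2, which encodes prohormone convertase 2, had 4.08 and 3.69 TPM in Dor cKO and 5.49 and 5.97 TPM in Dor WT. It was lower in both Dor cKO libraries, with a log2 fold change of -0.55 (SE 0.12), and its call ended with limma on log2(TPM + 1) (-0.46). Pcsk1, which encodes prohormone convertase 1/3, had 3.35 and 2.63 TPM in Dor cKO and 3.68 and 3.30 TPM in Dor WT. These values overlapped, and its log2 fold change of -0.20 (SE 0.14) did not pass the test over all genes.

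Of the convertase partners, the one that serves convertase 2 was lower in Dor cKO. Scg5 encodes 7B2, a chaperone needed for convertase 2 to become active. Its level was 48.5 and 51.7 TPM in Dor cKO and 70.4 and 69.0 TPM in Dor WT, with no overlap and a log2 fold change of -0.43 (SE 0.07), 1.35-fold lower. Pcsk1n encodes proSAAS, an inhibitor of convertase 1/3. It had 60.5 and 61.6 TPM in Dor cKO and 67.9 and 62.7 TPM in Dor WT, and its log2 fold change of -0.07 (SE 0.05) did not pass the test. Missing the threshold, as these 2 genes did, does not show that the levels were the same.

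Cpe encodes carboxypeptidase E, which removes the basic residues that convertases leave behind. It had 622 and 661 TPM in Dor cKO and 619 and 602 TPM in Dor WT. The Dor cKO library with the lower value and the Dor WT library with the higher one almost met, and the log2 fold change was 0.13 (SE 0.02), 1.10-fold higher. Under limma on log2(TPM + 1) the log2 fold change was 0.07 and no longer passed. Cpe held places 176 and 172 of all 55401 genes by TPM in Dor cKO and 177 and 180 in Dor WT.

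Summed over the 10 genes, the level was 1008 and 1053 TPM in Dor cKO and 1138 and 1119 TPM in Dor WT, of which Cpe made up 61.7% and 62.8% in Dor cKO and 54.4% and 53.8% in Dor WT. Without Cpe the sum of the other 9 was 386 and 392 TPM in Dor cKO and 519.6 and 517 TPM in Dor WT. Most of that gap lay in 3 genes: Chga, Chgb and Scg2 together had 60.2 and 59.3 TPM in Dor cKO and 179.9 and 187 TPM in Dor WT. The order of the levels shifted with them. In Dor cKO it ran Cpe, Scg3, Pcsk1n, Scg5, Scg2, Vgf, Chga, Chgb, Pcsk2 and Pcsk1, and only the neighbours Chga and Chgb overlapped between libraries. In Dor WT it ran Cpe, Scg3, Chga, Scg2, Scg5, Pcsk1n, Vgf, Chgb, Pcsk2 and Pcsk1, and only Vgf and Chgb overlapped.

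**Figure D2:**
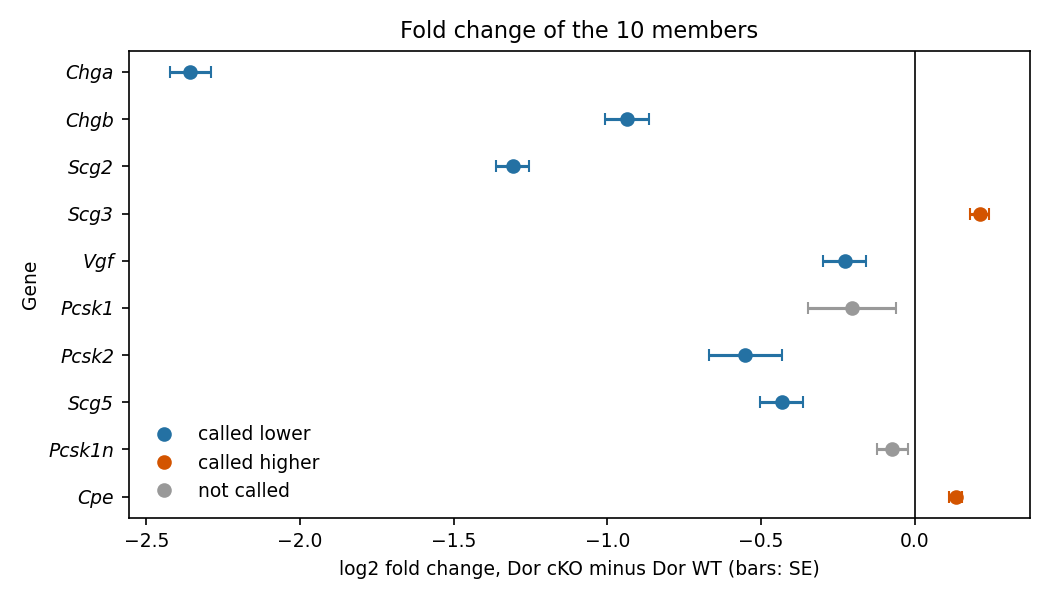
Log2 fold change of each of the 10 genes, Dor cKO minus Dor WT, with bars for the SE (2 libraries per group) and colours for the edgeR call at an adjusted p under 0.05. Values run from -2.36 for Chga to 0.21 for Scg3, with 6 genes called lower, 2 called higher and 2 not called.

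At an edgeR adjusted p under 0.05 over all genes tested, 6 of the 10 were called lower and 2 higher in Dor cKO, where 13.4% of all genes tested were called lower and 14.3% higher, or 27.7% in either direction. Since the set was chosen for its falls, nothing is read from that count. At a log2 fold change of -1 or lower, 2 of the 10 were called, against 1.03% of all genes, and 0 at 1 or higher, against 0.734%. In 9 of the 10 the CPM values of the 2 groups did not overlap, as was also so for 60.8% of all genes tested: 7 were lower, against 30.5% of all genes, and 2 higher, against 30.2%. The median log2 fold change was -0.33 over the 10 and -0.0036 over all genes. With a fixed biological coefficient of variation of 0.1, 4 were called lower and 0 higher, and the calls of Scg3, Scg5, Vgf and Cpe were lost.

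The 2 libraries of a group were close for these genes. The ratio of the second library to the first in CPM ranged from 0.786, for Pcsk1 in Dor cKO, to 1.09, for Pcsk2 in Dor WT. In 9 of the 10 genes the deposited tables give a posterior SD of 0 for the estimated count, and in Pcsk2 it reached 0.26 reads. Pcsk2 overlaps the antisense gene Pcsk2os1, which had counts of 19.06 and 20.07 in Dor cKO and 11.03 and 16.04 in Dor WT, while Eras, which overlaps Pcsk1n on the other strand, had 0 in all 4 libraries. In the GRCm38 annotation GENCODE M21 all 10 are protein-coding genes, with Chga on chromosome 12 (102554969 to 102565028), Scg2 on chromosome 1 (79434669 to 79440120) and Chgb on chromosome 2 (132781278 to 132795079). Scg5 (113776362 to 113829121) and Pcsk2 (143546156 to 143816285) are also on chromosome 2, Scg3 is on chromosome 9 (75643189 to 75684056), Vgf on chromosome 5 (137026392 to 137033351) and Pcsk1 on chromosome 13 (75089826 to 75134861). Pcsk1n is on chromosome X (7919822 to 7924410) and Cpe on chromosome 8 (64592542 to 64693054).

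Other enzymes that cut or modify prohormones went both ways. Of 22 listed, 21 were tested. In Dor cKO 5 of them rose, 4 fell and 12 missed the threshold, that is 42.9% called, against 27.7% of all genes tested, of which 14.3% were called higher and 13.4% lower. The median log2 fold change was 0.11. Pam, which encodes the enzyme that amidates peptides, had 270.2 and 269 CPM in Dor cKO and 252 and 235 CPM in Dor WT and rose by 0.15 (SE 0.03, edgeR adjusted p = 0.000386). Furin, a convertase of the constitutive pathway, had 82.7 and 80.0 CPM in Dor cKO and 68.0 and 71.4 CPM in Dor WT and rose by 0.22 (SE 0.05, adjusted p = 0.00134). Mbtps1, the site 1 protease of the Golgi, rose by 0.22 (SE 0.03, adjusted p = 4.8e-07), and Cpxm1, a carboxypeptidase-like gene, by 0.44 (SE 0.05, adjusted p = 1.29e-07). Pcsk5, named after its values were seen, rose by 0.33 (SE 0.08). The 4 that fell, named after their values were seen, were Pcsk6 (-0.79, SE 0.11), Cpm (-0.64, SE 0.13), Qpct (-0.53, SE 0.16) and Mme (-0.71, SE 0.26). Pcsk6 encodes a convertase of the constitutive pathway, Cpm a membrane carboxypeptidase, Qpct the enzyme that forms pyroglutamate and Mme neprilysin, which degrades peptides. With limma on log2(TPM + 1) 1 rose and 1 fell, and the calls of Pam, Furin and Mbtps1 were lost; with the fixed coefficient of variation these 3 were lost as well.

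**Figure D3:**
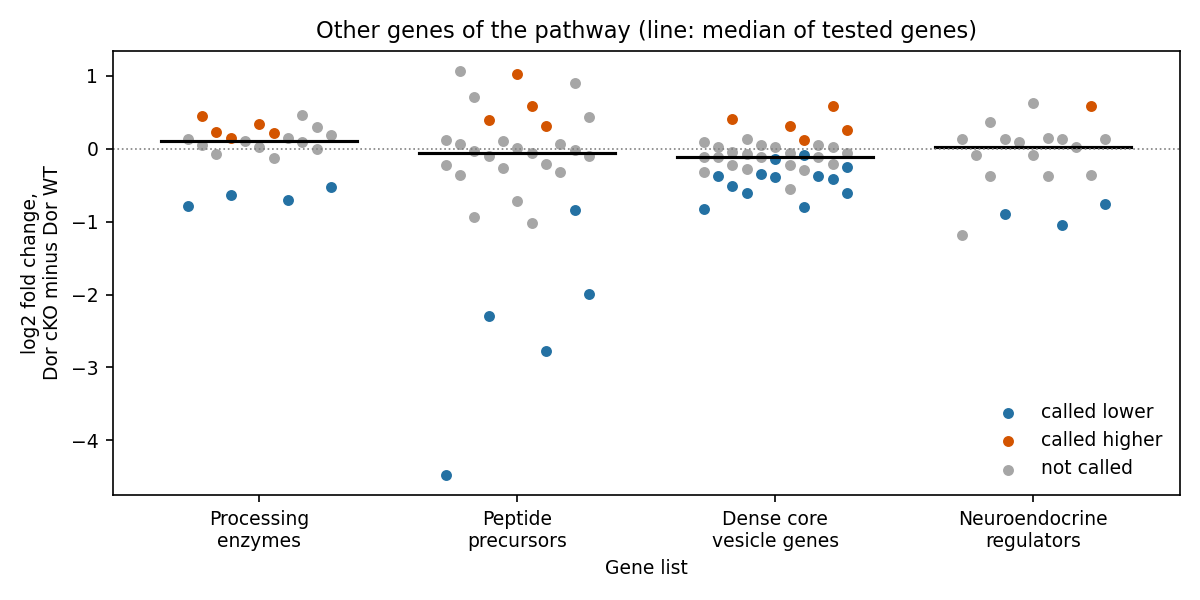
Log2 fold change, Dor cKO minus Dor WT, of each tested gene of 4 lists, coloured by the edgeR call, with a line at the median of each list. The medians lie between -0.12 for the dense core vesicle genes and 0.11 for the processing enzymes, and the largest falls are among the peptide precursors.

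The substrates of these enzymes were read from 62 genes for precursors of peptide hormones and neuropeptides, of which 31 were tested. In Dor cKO 5 of them fell, 4 rose and 22 missed the threshold, that is 29.0% called, close to the 27.7% of all genes tested. The median log2 fold change was -0.06. Npy, which encodes the precursor of neuropeptide Y, had 2.81 and 3.03 CPM in Dor cKO and 15.9 and 13.0 CPM in Dor WT and fell by 2.30 in log2 (SE 0.17, edgeR adjusted p = 8.65e-12). Pomc, the precursor of corticotropin and melanotropin, had 1.57 and 1.54 CPM in Dor cKO and 7.25 and 5.25 CPM in Dor WT and fell by 1.99 (SE 0.26, adjusted p = 3.92e-07). Cck, the cholecystokinin gene, had 0.905 and 0.771 CPM in Dor cKO and 5.99 and 5.62 CPM in Dor WT and fell by 2.78 (SE 0.29, adjusted p = 7.8e-09). Agrp, a feeding peptide gene of the arcuate nucleus, had 0 and 4 counts in Dor cKO and 31 and 59 counts in Dor WT (edgeR adjusted p = 5.4e-06). It passed the low-count filter only through Dor WT. The CPM values of the groups did not overlap for Npy, Pomc, Cck, Agrp or Npb. Of the 31 tested precursors, 11 were lower and 7 higher without overlap, against 30.5% and 30.2% of all genes tested. Npb, the precursor gene of neuropeptide B, fell by 0.84 (SE 0.31, edgeR adjusted p = 0.0413). That call was lost with DESeq2 (adjusted p = 0.165), with limma on log2(TPM + 1) (adjusted p = 0.162) and with a non-robust fit. It was also lost without Dor cKO replicate 1 (-0.40) or Dor WT replicate 2 (-0.64). Pomc is also a hormone gene of the pituitary, and Npy and Agrp are expressed in the hypothalamus, whose markers are given further on.

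Among the precursors that rose, Oxt, the oxytocin gene, had 42.2 and 43.0 CPM in Dor cKO and 32.0 and 32.7 CPM in Dor WT, a rise of 0.40 (SE 0.07, edgeR adjusted p = 5.76e-05). Pthlh, which encodes a parathyroid hormone related peptide, had 6.14 and 5.49 CPM in Dor cKO and 2.19 and 3.45 CPM in Dor WT and rose by 1.02 (SE 0.23, adjusted p = 0.00104), a call lost with limma on log2(TPM + 1) (adjusted p = 0.0749). The Oxt call was lost with the fixed coefficient of variation. Adm, the adrenomedullin gene, rose by 0.58 (SE 0.18, edgeR adjusted p = 0.0159). That call was lost with DESeq2, with limma and without Dor cKO replicate 2 (0.50) or Dor WT replicate 1 (0.51). Nucb2, the precursor of nesfatin, rose by 0.31 (SE 0.10, edgeR adjusted p = 0.0246). Its call was lost with DESeq2, limma and the fixed coefficient of variation, and when any 1 of the 4 libraries was left out (0.28 to 0.34). Without Dor cKO replicate 2, or without Dor WT replicate 1, 2 precursors rose. The most abundant precursor, Avp, which encodes vasopressin and was named after its values were seen, had 341 and 357 CPM in Dor cKO and 334 and 358 CPM in Dor WT, values that overlapped (log2 fold change 0.01, SE 0.03). Penk and Pdyn, the opioid precursor genes, named in the same way, had log2 fold changes of 0.07 (SE 0.15) and 0.07 (SE 0.13) and were not called.

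**Figure D4:**
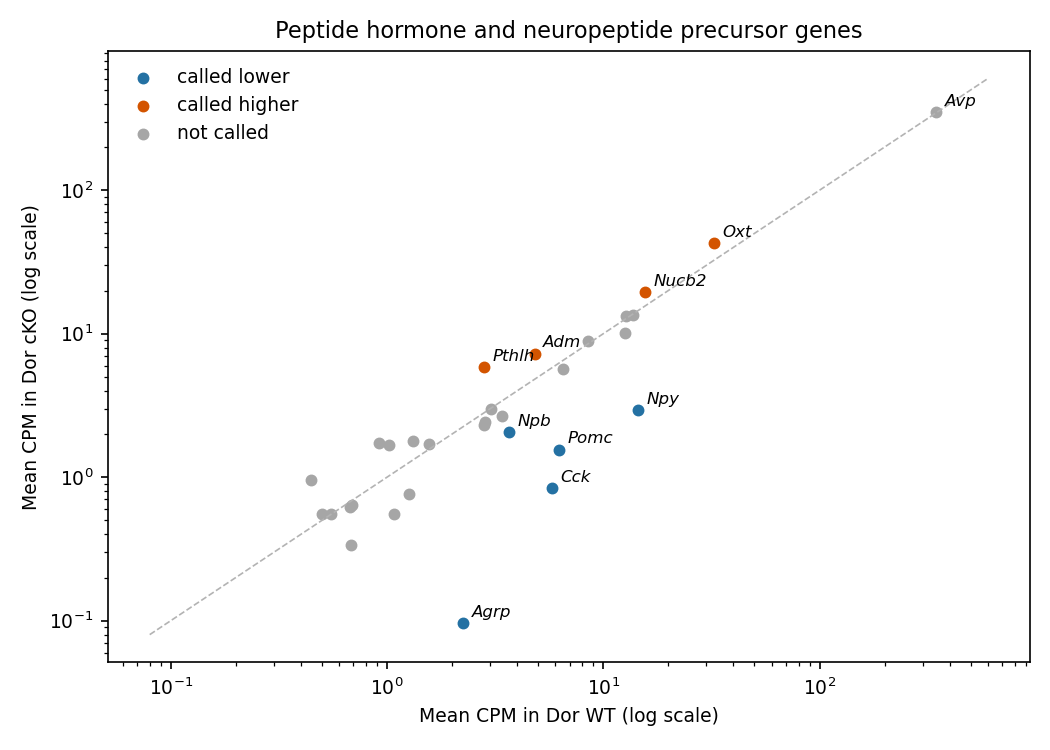
Mean CPM of the 31 tested precursor genes in Dor cKO (vertical) against Dor WT (horizontal), on log axes with a line of equal levels; each point is the mean of 2 libraries and colours give the edgeR call. Agrp, Cck, Pomc and Npy lie below the line, Pthlh, Adm, Oxt and Nucb2 above it, and Avp, the most abundant, on it.

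The membrane and release machinery of dense core vesicles was measured through 41 genes, of which 40 were tested. In Dor cKO 13 of them fell, 5 rose and 22 missed the threshold, that is 45.0% called, against 27.7% of all genes tested, of which 13.4% were called lower and 14.3% higher. The median log2 fold change was -0.12. Rab2a, a GTPase gene of vesicle maturation, had 200.0 and 201 CPM in Dor cKO and 226 and 215 CPM in Dor WT and fell by 0.14 (SE 0.03, edgeR adjusted p = 0.00105), a call lost with limma on log2(TPM + 1) (adjusted p = 0.0813) and with the fixed coefficient of variation (adjusted p = 0.68). Vamp2, the vesicle SNARE gene, fell by 0.09 (SE 0.03, edgeR adjusted p = 0.0405). That call was lost with DESeq2, limma, the fixed coefficient of variation and no low-count filter. It was also lost without Dor cKO replicate 1 (-0.06), Dor WT replicate 1 (-0.10) or Dor WT replicate 2 (-0.09). Larger changes, named after their values were seen, went both ways. Resp18, a granule protein gene, had 12.1 and 13.9 CPM in Dor cKO and 21.99 and 23.16 CPM in Dor WT and fell by 0.80 (SE 0.11, adjusted p = 9.34e-07). Ptprn and Ptprn2, which encode the granule membrane proteins IA-2 and phogrin, fell by 0.38 (SE 0.06) and 0.52 (SE 0.08), and the vesicle genes Syt4 and Rab3a by 0.61 (SE 0.12) and 0.41 (SE 0.06). The lowest of the falls was that of Sytl5, a synaptotagmin-like gene, at -0.82 (SE 0.30).

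Rph3a, which encodes a Rab3 effector of exocytosis, went the other way, with 188 and 195 CPM in Dor cKO and 127 and 127 CPM in Dor WT, a rise of 0.59 (SE 0.03, edgeR adjusted p = 3.77e-14). Dnajc5, a chaperone gene of secretory vesicles, rose by 0.12 (SE 0.03, edgeR adjusted p = 0.0052). Its call ended with DESeq2 (adjusted p = 0.0641), with limma on log2(TPM + 1) (adjusted p = 0.421), with the fixed coefficient of variation and without Dor cKO replicate 2 (0.11). The other 3 that rose, named after their values were seen, were Sytl4 (0.40, SE 0.15), Cplx2 (0.32, SE 0.04) and Rab3d (0.26, SE 0.07), a synaptotagmin-like, a complexin and a Rab3 GTPase gene. With limma on log2(TPM + 1) 3 vesicle genes fell and 1 rose, and without Dor cKO replicate 2 only 2 rose.

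Of 19 transcription factors and co-factors of neuroendocrine and neuronal genes, 3 fell and 1 rose, that is 21.1% called, against 27.7% of all genes tested. The median log2 fold change was 0.03. St18, a gene of the Myt1 family, had 10.1 and 9.44 CPM in Dor cKO and 20.44 and 20.03 CPM in Dor WT and fell by 1.05 (SE 0.12, edgeR adjusted p = 3.12e-08). Myt1 itself fell by 0.90 (SE 0.11, adjusted p = 1.14e-07) and the REST co-factor gene Rcor2 by 0.76 (SE 0.14, adjusted p = 0.000121). Both Myt1 and St18 are also known to be expressed in the oligodendrocyte lineage, whose markers were lower in these libraries. Rest, the repressor of neuronal genes that is known to act on granin promoters, was named after its values were seen and had 44.5 and 47.2 CPM in Dor cKO and 43.0 and 39.9 CPM in Dor WT (log2 fold change 0.15, SE 0.07, adjusted p = 0.108). With limma on log2(TPM + 1) 1 of these genes fell and 1 rose, and St18 and Myt1 were not called; without Dor WT replicate 2, 2 rose.

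Markers of tissue next to the optic nerve differed by list. Most tested pituitary genes were lower in Dor cKO, most tested hypothalamic genes were not called, and no tested retina gene was called. The summed retina level was higher in both Dor cKO libraries than in either Dor WT library, at 19.96 and 21.10 against 14.97 and 19.34 CPM. Most of that sum was Rbpms, with 18.2 and 19.5 CPM in Dor cKO and 12.8 and 17.4 CPM in Dor WT. Pou4f1 lay the other way, with 6 and 5 counts in Dor cKO and 17 and 16 in Dor WT. Neither gene was called. With 2 libraries per group, any gene called lower shares the split of Chga, Scg2 and Chgb, so a shared direction does not link them. Of 18 pituitary genes, 6 were tested, 5 fell and 0 rose, that is 83.3% called, against 27.7% of all genes tested. Cga, Gh, Pitx1 and Lhx3 passed the low-count filter only through Dor WT, which fixed their direction in advance, so nothing is read from that share. The summed level of the 18 was 2.67 and 2.31 CPM in Dor cKO and 33.8 and 31.3 CPM in Dor WT. Cga, which encodes the subunit that glycoprotein hormones of the pituitary share, had 0 counts in both Dor cKO libraries and 275 and 376 in Dor WT. Set against 3 counts in each Dor cKO library, that is at least 117-fold lower. Gh, the growth hormone gene, had 3 and 0 counts in Dor cKO and 121 and 123 in Dor WT, and Pitx1, a pituitary transcription factor gene, 3 and 2 in Dor cKO and 65 and 75 in Dor WT. Lhx3, a further factor of pituitary development, had 0 in both Dor cKO libraries and 23 in each of the Dor WT libraries, at least 8.41-fold lower. Of the 18 genes 9 were at 0 in both Dor cKO libraries and 2 in both Dor WT libraries.

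Hypothalamic markers were present in both groups, at a summed 87.4 and 82.9 CPM in Dor cKO and 103 and 109.8 CPM in Dor WT over 14 genes. Of these, 12 were tested, 4 fell and 0 rose. That is 33.3% called, against 27.7% of all genes tested, of which 13.4% were called lower and 14.3% higher. Among the genes that fell, Nkx2-4 passed the low-count filter only through Dor WT. Nkx2-4 had 0 in both Dor cKO libraries and 25 and 39 counts in Dor WT, at least 11.4-fold lower, while Six3 (-0.20, SE 0.10) and Six6 (-0.19, SE 0.11) were not called. Otp, a factor of hypothalamic neurons, fell by 0.41 (SE 0.12, edgeR adjusted p = 0.0073), a call lost without Dor WT replicate 2 (-0.29) and with DESeq2 and limma. Rax and Nkx2-1, the other 2 that fell, named after their values were seen, had log2 fold changes of -3.18 (SE 0.47) and -1.94 (SE 0.26). Of 17 neuron genes, 5 fell and 1 rose, that is 35.3% called, against 27.7% of all genes tested. Their sum was 472 and 476 CPM in Dor cKO and 590.5 and 587 CPM in Dor WT. Elavl3, a neuronal RNA-binding protein gene, fell by 0.77 (SE 0.04, edgeR adjusted p = 5.94e-15), and Tubb3 (-0.07, SE 0.06) was not called. Over 7 chromaffin and sympathetic genes the sum was 3.14 and 3.76 CPM in Dor cKO and 4.32 and 5.02 CPM in Dor WT, with none of the 2 tested members called by edgeR, and 0 at an unadjusted p under 0.05 by edgeR, DESeq2 or limma. Of 8 astrocyte genes, 7 rose and 1 fell, that is 100% called, against 27.7% of all genes tested. DESeq2 also called 8 of them, and limma on log2(TPM + 1) called 5. The most abundant, Gfap (0.10, SE 0.01), Gja1 (0.38, SE 0.01) and Slc1a3 (0.22, SE 0.02), lost their calls with the fixed coefficient of variation. The part of any of these markers in the results on the granins and prohormone processing genes was not tested.

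**Figure D5:**
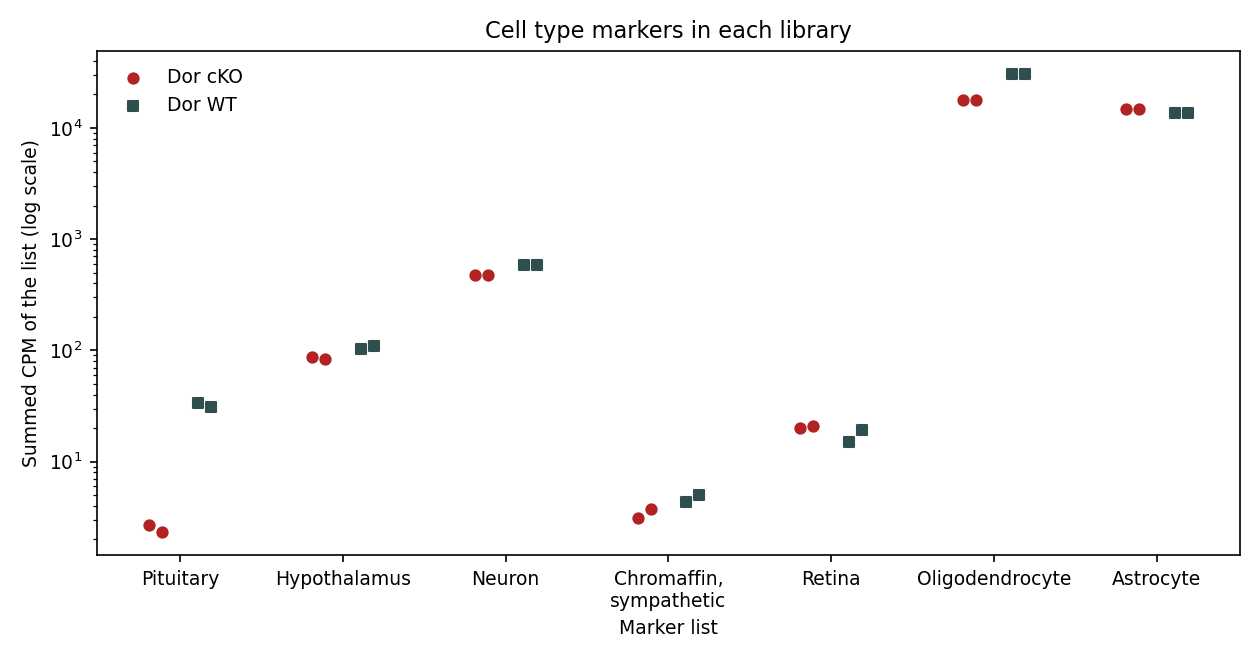
Summed CPM of 7 marker lists in each library, on a log axis, with Dor cKO as red circles and Dor WT as dark squares. The pituitary sum is 2.67 and 2.31 in Dor cKO and 33.8 and 31.3 in Dor WT, a wider gap than for the other 6 lists.

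The genes whose profile over the 4 libraries lay closest to Chga, by Euclidean distance of centred log2 CPM among 14610 other genes, were Cck (0.197), Abca8a (0.197), Amtn (0.248), Nkx2-4 (0.285) and Npy (0.307). Abca8a encodes a lipid transporter and Amtn an enamel protein. In TPM the groups overlapped for Abca8a, with 4.09 and 0.66 in Dor cKO and 3.93 and 4.26 in Dor WT. Its call was lost with limma on log2(TPM + 1) (adjusted p = 0.41). For Scg2 they were Gjc3 (0.0682), Amelx (0.0852), Nr5a2 (0.0983), Olig1 (0.115) and Pak7 (0.127). Gjc3 encodes a connexin of oligodendrocytes, Amelx an enamel protein, Nr5a2 a nuclear receptor, Pak7 a kinase, and Olig1 a factor of the oligodendrocyte lineage. Gjc3 had 59.2 and 58.0 CPM in Dor cKO and 139 and 148 CPM in Dor WT, and Olig1 had 149.6 and 151 CPM in Dor cKO and 379 and 380 CPM in Dor WT. Closeness on this scale, where 0.5 CPM is added before the log, does not mean a like fold change: Nkx2-4 and Nr5a2 had 0 counts in both Dor cKO libraries, and their falls of at least 11.4-fold and 5.40-fold compare with 5.12-fold for Chga and 2.47-fold for Scg2.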

How the data were processed

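RNA was extracted from optic nerves with TRIzol, made into stranded mRNA libraries and sequenced as paired reads, per the labels' protocols. Trimmomatic 0.36, STAR 2.7.9a, RSEM 1.3.1 and the build GRCm38 appear in the submitters' processing notes with no role given. Neither the annotation release nor a strand setting for counting is stated there. Per the file headers, the authors deposited RSEM gene tables with an expected count (an estimated count that need not be whole) and a TPM value per gene, beside other values: gene length, effective length and the posterior SD of the count. The TPM values are the authors' and have the same total in each library. Symbols were matched for 55141 of 55401 identifiers.

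Expected counts were rounded and genes filtered with filterByExpr of edgeR 4.0.16 (minimum count 10, minimum total 15). Libraries were scaled by TMM and compared by the quasi-likelihood test with a robust fit and genotype alone in the model. The p-values were adjusted by Benjamini-Hochberg over 16751 genes, with a threshold of 0.05. Differences are on the log2 scale, Dor cKO minus Dor WT, and the SE is the size divided by the square root of F. CPM uses TMM-scaled sizes, and 3 counts are 0.139 to 0.174 CPM before that scaling. Floors cover counting error only. The steps were tested on simulated data. The 2 libraries of a genotype differed by more than counting noise (chi-square per gene 2.24 in Dor cKO and 2.69 in Dor WT). Alternatives used DESeq2 1.42.0, limma 3.58.1 and other settings given in the closing section.

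The members and lists were chosen with earlier results of these data known. Named genes were the members; of each pathway list, called genes with an absolute log2 fold change of at least 1, up to 4 further called genes of highest mean CPM and, where fewer than 2 were called, the 2 most abundant; of each marker list, the 3 most abundant genes and those at 0 in both libraries of 1 genotype with at least 10 counts in both of the other; Trp53inp2; and the 5 genes nearest to Chga and to Scg2 (offset 0.5 CPM, genes with clone or number names left out). Marker genes that bear on no result are given as list sums. A gene that this rule selects is not reported here. Lists of markers of retina, oligodendrocyte precursors and vessels, microglia and fibroblasts were also drawn up. Over 12 retina genes 4 were tested and 0 called by edgeR (2 at an unadjusted p under 0.05, against 0 by DESeq2 and 1 by limma). Of 4 oligodendrocyte precursor genes 3 fell, that is 75.0% called, against 27.7% of all genes tested. DESeq2 and limma on log2(TPM + 1) each called 1 of the 4. Gpr17 (-1.18, SE 0.02) kept its call with both, and Ptprz1 (-0.07, SE 0.02) and Pdgfra (-0.07, SE 0.03) lost theirs. Of 10 vessel, microglia and fibroblast genes 6 rose and 1 fell, that is 70.0% called, against 27.7% of all genes tested.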

Additional observations from a re-analysis of the deposited data

How the results depend on the processing

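Over 14 alternatives the log2 fold changes ranged from -2.39 to -2.31 for Chga, from -0.98 to -0.90 for Chgb and from -1.37 to -1.25 for Scg2. The set was selected on this contrast, so these ranges describe it and support nothing. Among the 6 members called lower and 2 called higher, 2 were lower and 0 higher at an absolute log2 fold change of at least 1, and 1 was higher with limma on log2(TPM + 1) or log2(TPM + 0.1). A likelihood ratio test with a fixed biological variation of 0.1, chosen after seeing the data, left 0 higher. Leaving out each library in turn gave 5 to 6 lower and 2 higher.

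Over all genes, 2248 were lower and 2399 higher; the counts were 1392 and 1549 with DESeq2, 738 and 690 with limma on log2(TPM + 1), 738 and 684 on log2(TPM + 0.1), 172 and 123 at an absolute log2 fold change of at least 1, 891 and 703 with the fixed variation, and 1670 to 2073 and 1782 to 2184 with 1 library left out. Processing enzymes were 4 lower and 5 higher; DESeq2 gave 2 lower, limma at either pseudocount 1 and 1, the fold minimum 0 and 0, the fixed variation 1 higher, and leaving out 1 library 3 to 4 and 5 to 6. Peptide precursors were 5 lower and 4 higher; DESeq2 gave 3 and 2, limma at either pseudocount 1 higher, the fold minimum 1 higher, the fixed variation 2 higher, and leaving out 1 library 4 to 5 and 2 to 3. Vesicle genes were 13 lower and 5 higher; DESeq2 gave 2 higher, limma at either pseudocount 3 and 1, the fold minimum 0 and 0, the fixed variation 5 and 1, and leaving out 1 library 9 to 11 and 2 to 5. Regulators were 3 lower and 1 higher; limma at either pseudocount gave 1 lower, the fold minimum 1 and 0, and leaving out 1 library 3 to 4 and 1 to 2.

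Total count scaling gave 2529 lower and 2161 higher genes. The replicate block, for which the labels give no shared animal or batch (correlation of deviations 0.135), gave 2409 lower and 2562 higher genes and the same 6 and 2 members. The retinal gene Opn1sw, not called, turned from -0.10 to 0.65 and 1.00 with limma on log2(TPM + 1) and log2(TPM + 0.1) and ranged from -0.63 to 0.29 with 1 library left out, turning positive without Dor cKO replicate 1; the cause was not tested. DESeq2 gave no adjusted p for 8 of the named genes, which are left out where lost calls of single genes are given. In its counts of genes called, over all genes and in the lists, the 2274 tested genes without an adjusted p were scored as not called. Agrp, among the precursors, was 1 of them. With 1 library left out, the lone sample is assumed to vary like the other group. Groups of 2 allow no exact permutation p below 0.333, and counts under the floor set the limit for Cga, Lhx3 and Nkx2-4.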
